A study of Mus musculus with 28 samples.

Results

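Kidney expression of 10 genes of glucose, phosphate and vitamin D handling was examined in mice gavaged with NMN (nicotinamide mononucleotide, a precursor of NAD+) or with water. The genes were taken by symbol from a list that was put together with earlier results of these data known, and were 10 of the 54446 genes counted in each library. They comprise the sodium-glucose transporters Slc5a1 and Slc5a2, the sodium-phosphate transporters Slc34a1, Slc34a3, Slc20a1 and Slc20a2, the klotho gene Kl, and the vitamin D genes Cyp27b1, Cyp24a1 and Vdr. All mice were male C57BL/6 of 8 weeks (substrain J by the study's methods), and the labels name no mutant allele. Gavage lasted 7 days. In the 1340 mg/kg/d schedule the mice were gavaged 1 time a day, with 4 NMN and 4 water kidneys. In the 2680 mg/kg/d schedule they were gavaged 2 times a day, with 3 NMN and 3 water kidneys. Dose, number of gavages and library set all differ between the schedules and cannot be told apart. PolyA RNA was sequenced, and the 14 kidney libraries held 13174264 to 33872983 counted reads. Depth differed between the treatments without overlap in both schedules, with fewer counted reads in NMN libraries at 1340 mg/kg/d (13174264 to 14006288, against 15354270 to 15696435 in water) and more at 2680 mg/kg/d (22922994 to 33872983, against 16358886 to 18983689 in water). Livers of the same design (14 libraries) were used here for reference only.

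Glucose and phosphate filtered by the glomerulus are taken back in the proximal tubule by transporters in the brush border that are driven by the sodium gradient. Slc5a2 (SGLT2) carries most of the glucose in the early segment and Slc5a1 (SGLT1) the rest further down, whereas Slc34a1 (NaPi-IIa) and Slc34a3 (NaPi-IIc) carry phosphate under the control of parathyroid hormone and of FGF23, for which klotho is the co-receptor. The kidney also makes active vitamin D with Cyp27b1, degrades it with Cyp24a1 and responds to it through the receptor Vdr.

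All 10 genes passed the filter on low counts in both schedules. Log2 fold changes of NMN against water are given with their standard errors (SE). In the edgeR quasi-likelihood test with Benjamini-Hochberg adjustment over all tested genes, 0 of 10 passed an adjusted p of 0.05 at 1340 mg/kg/d, where 0.12% of 14972 tested genes did. At 2680 mg/kg/d 1 of 10 passed, Slc34a3, which was lower with NMN, where 0.4% of 15245 tested genes passed and 0.282% were lower. Slc5a2, Slc34a1 and Slc34a3 were the members whose NMN and water libraries did not overlap in either schedule, all lower with NMN, and 128 of 14547 genes tested in both schedules (0.88%) had that pattern. No other member was without overlap at 1340 mg/kg/d, where 2.83% of tested genes were lower in that way. At 2680 mg/kg/d they were joined by Slc20a1, lower in all NMN libraries (8.69% of tested genes), and Vdr, higher in all (8.47%). At an unadjusted p under 0.05, 3 of 10 members passed at 1340 mg/kg/d, against 8.94% of tested genes, and 5 of 10 at 2680 mg/kg/d, against 11.1%. The median log2 fold change of the 10 genes was -0.06 and -0.24, and that of all tested genes was 0.001 and 0.004. In a fit of both schedules with 1 NMN effect, which was chosen after seeing the data, Slc34a3, Slc5a2 and Slc34a1 passed, that is 3 of 10 members against 1.28% of 15989 genes, with 0.801% passing as lower. The list is short, so these shares describe the 10 genes and are no test of the list. In whole kidney, less RNA of a gene per cell and fewer cells of a type cannot be told apart.

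**Figure D1:**
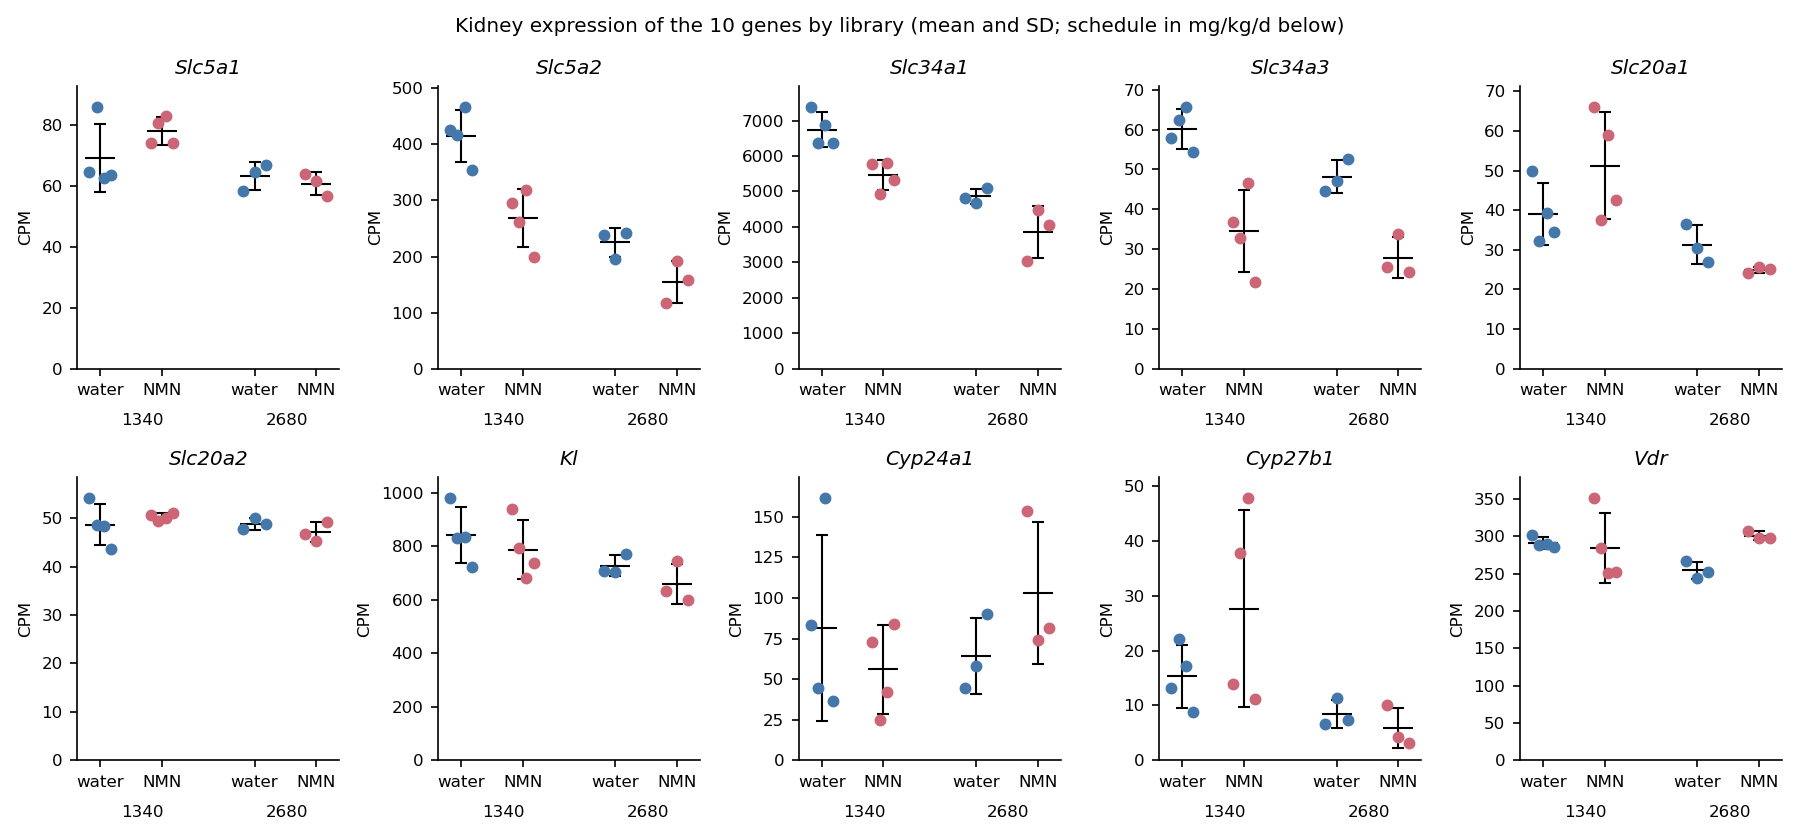
Counts scaled to the library total times edgeR's TMM factor (CPM, y axis) of each of the 10 genes in the 14 kidney libraries (points), by treatment and schedule, with mean and SD (black). Slc5a2, Slc34a1 and Slc34a3 were lower in every NMN library than in any water library of their schedule, while Slc5a1, Slc20a2 and Kl overlapped in both schedules.

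Scaled to exonic length and library total (TPM), Slc34a1 was the most abundant of the 10 in water kidneys of the 1340 mg/kg/d schedule, at 3781 TPM ± 215 (SD, n = 4). Slc5a2 followed at 377 TPM ± 51.3, Kl at 237 TPM ± 27.8 and Vdr at 135 TPM ± 6.14, and the libraries of these 4 genes did not overlap. Slc34a3 at 67.0 TPM ± 8.43, Cyp24a1 at 60.1 TPM ± 42.7 and Slc5a1 at 44.6 TPM ± 9.61 overlapped with each other. Slc20a2 at 20.6 TPM ± 1.85, Slc20a1 at 18.2 TPM ± 2.90 and Cyp27b1 at 15.8 TPM ± 6.75 overlapped as well. In water kidneys of the 2680 mg/kg/d schedule the order was the same but for Kl and Slc5a2, which overlapped at 176 TPM ± 4.58 and 175 TPM ± 15.7 (SD, n = 3). All 10 genes had a lower mean TPM in the second set of water kidneys, and mitochondrially encoded genes took a mean of 20.6% of its counts against 9.72% in the first. Levels were therefore compared with water within a schedule.

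In the liver, 7 of the 10 genes were at a group mean of 1.39 CPM or less. Slc34a1 averaged 8.60 CPM in water and 8.49 CPM in NMN livers at 1340 mg/kg/d, and was at 0.103, 1.39 and 0.474 CPM in water and 4.88, 0.383 and 0.158 CPM in NMN livers at 2680 mg/kg/d, where NMN replicate 1 stood apart. Slc34a3 had 0 counts in all 6 libraries of the 2680 mg/kg/d livers, which allows up to 3 counts per library by counting error alone. Slc20a2, a phosphate carrier of most cells, was at 66.3 CPM ± 4.85 (SD, n = 4) in water livers and 48.7 CPM ± 4.28 (SD, n = 4) in water kidneys at 1340 mg/kg/d, and Slc20a1 at 31.0 and 39.0 CPM. The organs were scaled separately, so these pairs are set side by side only.

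The stretches of DNA upstream of the start of 3 transporters are shown because Slc34a1 and Slc34a3 were lower together with NMN and Slc5a1 was not. They come from RefSeq windows of 250 bases before to 50 bases after the start (build GRCm38.p6), which held 7 of the 10 genes, among 27025 windows. Slc5a2, Slc20a2 and Cyp24a1 were not among them. Capitals mark CACGTG, the E-box that clock factors and others bind, which was found in Slc5a1 and in neither of the other stretches. The stretches shown are the parts of these windows at chr5:33103969-33104218 (plus strand) for Slc5a1, chr13:55399398-55399647 (plus strand) for Slc34a1 and chr2:25234365-25234475 (minus strand) for Slc34a3. Only the 111 bases that overlap no exon are given for Slc34a3.
Slc5a1: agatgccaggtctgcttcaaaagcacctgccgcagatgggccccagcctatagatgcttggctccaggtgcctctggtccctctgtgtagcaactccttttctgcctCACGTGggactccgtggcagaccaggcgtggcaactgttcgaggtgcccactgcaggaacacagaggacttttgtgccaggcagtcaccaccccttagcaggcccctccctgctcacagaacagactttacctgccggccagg
Slc34a1: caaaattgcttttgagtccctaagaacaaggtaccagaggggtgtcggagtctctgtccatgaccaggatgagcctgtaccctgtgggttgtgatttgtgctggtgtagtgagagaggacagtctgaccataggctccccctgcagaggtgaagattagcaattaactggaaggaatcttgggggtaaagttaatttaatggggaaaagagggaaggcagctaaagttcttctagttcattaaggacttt
Slc34a3: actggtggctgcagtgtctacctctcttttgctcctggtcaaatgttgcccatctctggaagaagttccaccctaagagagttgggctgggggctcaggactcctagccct
CACGTG stood 143 to 138 bases before the Slc5a1 start and was also in the Slc20a1 window, and 6.05% of all windows held it. The vitamin D receptor repeats (AGGTCA or AGTTCA written 2 times with 3 bases of any kind between) and the cAMP element TGACGTCA were searched on both strands. They were in 0 of the 7 windows. For every motif, including CACGTG, only the 250 bases of a window before the start were searched. Of all windows, 0.0074% and 0% held the repeats and 1.62% the cAMP element. A match is a description of the letters only.

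Slc5a2, the main glucose transporter of the early proximal tubule, had lower scaled counts (CPM) with NMN in both schedules. At 1340 mg/kg/d it stood at 425, 417, 467 and 355 CPM in water replicates 1 to 4 and at 296, 261, 318 and 199 CPM in the NMN replicates. The highest NMN library was thus below the lowest water library. Mean Slc5a2 was 416 CPM ± 46.4 (SD, n = 4) with water and 269 CPM ± 52.1 (SD, n = 4) with NMN. Its log2 fold change was -0.63 (SE 0.13, edgeR adjusted p = 0.0852). An exact two-sided permutation test of this gene alone gave p = 0.0286, the smallest that 4 against 4 allows. In the 2680 mg/kg/d schedule the values were 238, 195 and 242 CPM in water and 117, 191 and 158 CPM in NMN libraries. The groups stood apart by a small margin, between water replicate 2 and NMN replicate 2. The log2 fold change was -0.54 (SE 0.18, edgeR adjusted p = 0.324), and with 3 against 3 the exact two-sided permutation p was 0.1, the smallest possible. Over both schedules Slc5a2 fell by 33.7%, which is -0.59 on the log2 scale (SE 0.11, edgeR adjusted p = 0.0145). DESeq2 put Slc5a2 past the threshold in each schedule on its own (adjusted p = 0.00226 and 0.037), as did edgeR at 1340 mg/kg/d without NMN replicate 3 (adjusted p = 0.0262). Of its exonic length, 20.6% overlaps BC017158 on the other strand, and the counting ignored strand. Reads wholly within the shared bases could therefore not be assigned to 1 gene. Such reads were set apart as ambiguous and are missing from the Slc5a2 count.

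Slc5a1, which takes up glucose further along the tubule, did not pass the test in either schedule. It stood at 64.6, 86.1, 62.6 and 63.8 CPM in water and at 74.3, 80.9, 83.2 and 74.2 CPM in NMN replicates 1 to 4 at 1340 mg/kg/d. Water replicate 2 was the highest of these 8 libraries, and the other water libraries were below all NMN libraries. The log2 fold change was 0.17 (SE 0.11, 95% interval -0.04 to 0.39, edgeR adjusted p = 0.677). Slc5a1 at 2680 mg/kg/d was between 58.3 and 67.1 CPM in water and between 56.7 and 64.2 CPM in NMN libraries, with a log2 fold change of -0.06 (SE 0.09, edgeR adjusted p = 0.846).

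The ratio of Slc5a2 to Slc5a1 counts within a library was 6.58, 4.84, 7.46 and 5.55 in water and 3.99, 3.23, 3.83 and 2.68 in NMN replicates 1 to 4 at 1340 mg/kg/d. These groups did not overlap. In the other schedule it was 4.07, 3.02 and 3.61 in water and 1.82, 3.10 and 2.78 in NMN libraries, where NMN replicate 2 was above water replicate 2. The ratio was not tested, since both of its genes were.

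Slc34a1 (NaPi-IIa), the major phosphate transporter of the mouse proximal tubule, was lower with NMN by about the same amount in both schedules. At 1340 mg/kg/d it stood at 7383, 6356, 6884 and 6354 CPM in water and at 5772, 4914, 5804 and 5334 CPM in NMN replicates 1 to 4. No NMN library reached the lowest water library. The log2 fold change was -0.31 (SE 0.10, edgeR adjusted p = 0.304). In the other schedule Slc34a1 was at 4804, 4676 and 5095 CPM in water and 3052, 4469 and 4040 CPM in NMN libraries, again without overlap. This was a log2 fold change of -0.33 (SE 0.13, edgeR adjusted p = 0.364). With 1 library left out, the Slc34a1 value ran from -0.45 to -0.2 at 2680 mg/kg/d and from -0.34 to -0.25 at 1340 mg/kg/d. Over both schedules Slc34a1 fell by 0.32 on the log2 scale (SE 0.08, edgeR adjusted p = 0.0454). That call was near the threshold and was lost when any of 11 of the 14 libraries was left out, with adjusted p from 0.0251 to 0.106 over the 14 omissions. Pfn3 on the other strand shares 11.7% of the exonic length of Slc34a1.

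Slc34a3 (NaPi-IIc), the less abundant phosphate transporter of the same family, had the largest difference of the transporters in both schedules. At 1340 mg/kg/d it stood at 57.9, 62.4, 65.7 and 54.3 CPM in water and at 36.9, 32.7, 46.6 and 21.8 CPM in NMN replicates 1 to 4. All NMN libraries were below all water libraries, and NMN replicate 4 was the lowest. The mean was 60.0 CPM ± 5.01 (SD, n = 4) with water and 34.5 CPM ± 10.3 (SD, n = 4) with NMN. Its log2 fold change was -0.80 (SE 0.18, edgeR adjusted p = 0.115). DESeq2 gave this gene an adjusted p of 0.00297, and edgeR without NMN replicate 3 one of 0.014.

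Slc34a3 at 2680 mg/kg/d was at 44.7, 47.1 and 52.7 CPM in water replicates 1 to 3 and at 25.6, 33.9 and 24.2 CPM in NMN replicates. The groups did not overlap. Slc34a3 fell by 42.2%, a log2 value of -0.79 (SE 0.13, edgeR adjusted p = 0.0282), and DESeq2 gave an adjusted p of 1.43e-05. With all libraries thinned to the depth of the smallest, the value was -0.80 (edgeR adjusted p = 0.0314). The edgeR call was lost without NMN replicate 3 and without any 1 of the 3 water replicates (adjusted p = 0.0704 to 0.187), and when all 14 kidney libraries shared 1 estimate of the spread (adjusted p = 0.158). Over both schedules the fall was 0.80 on the log2 scale (SE 0.12, edgeR adjusted p = 0.00424), and this call held in each of the 14 omissions. Per 1000 counts of Slc34a1, Slc34a3 had 7.84 to 9.81 counts in water and 4.08 to 8.02 in NMN libraries at 1340 mg/kg/d, and 9.30 to 10.3 against 5.99 to 8.38 at 2680 mg/kg/d.

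**Figure D2:**
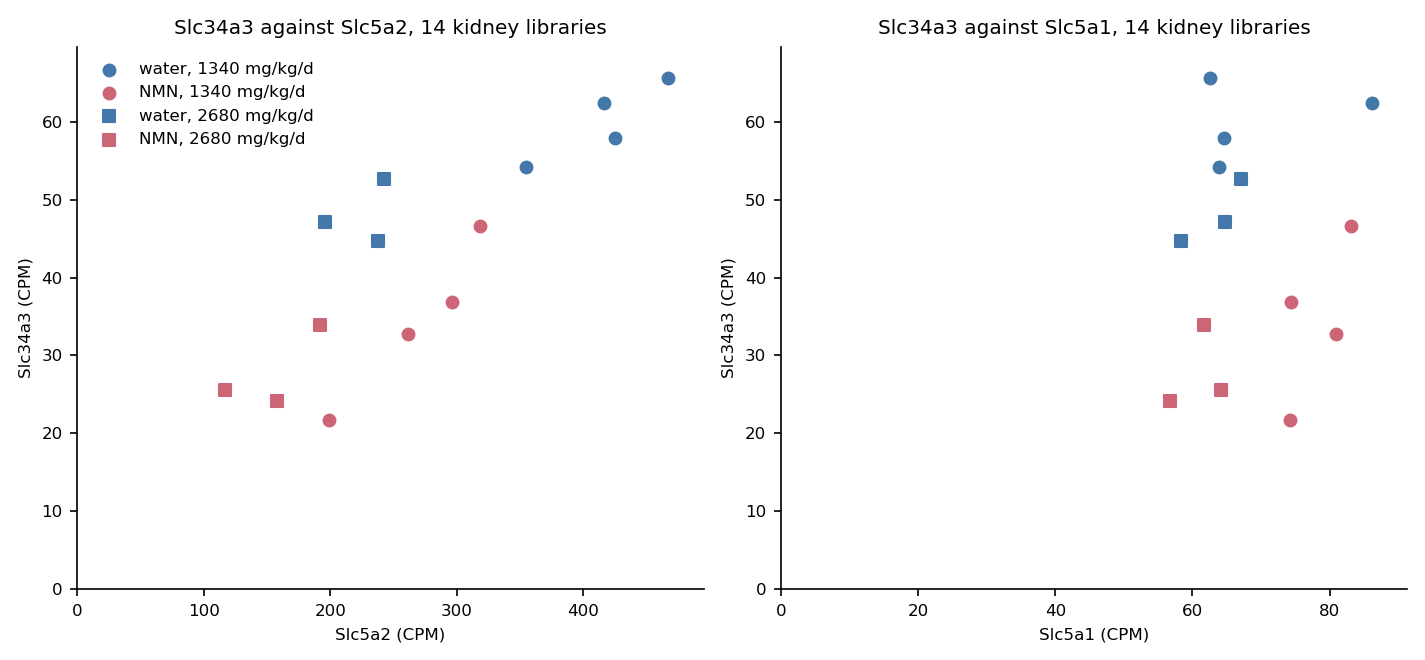
Slc34a3 (y axis, CPM) against Slc5a2 (left) and Slc5a1 (right, x axes, CPM) in each of the 14 kidney libraries, with circles for 1340 and squares for 2680 mg/kg/d. Within a schedule, all NMN libraries lie below all water libraries in Slc34a3 and in Slc5a2, whereas Slc5a1 overlaps between the treatments.

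Within groups, that is after subtraction of each group's mean, the log2 levels of Slc5a2 had a Pearson correlation of 0.80 with Slc34a3 and of 0.75 with Slc34a1 over the 14 libraries. Slc34a1 and Slc34a3 correlated at 0.40. These libraries share depth, dissection and composition with the genes compared, so the values describe them only. Taken instead after subtraction of the schedule mean, the genes most like Slc5a2 were Gm32461 (0.951), Chrna4 (0.947), a nicotinic receptor subunit, and Slc34a3 (0.937). By Pearson correlation those most like Slc34a3 were D630023F18Rik (0.962), Dpep1 (0.952), a brush border dipeptidase, and Slc5a2. Dpep1 fell by 0.53 on the log2 scale at 2680 mg/kg/d (edgeR adjusted p = 0.041) and had a log2 fold change of -0.51 at 1340 mg/kg/d (edgeR adjusted p = 0.0881). The genes most like Slc34a1 were Aldh4a1 (0.951), a proline-degrading enzyme, Cdhr5 (0.948), a brush border cadherin, and Tspan7 (0.920). Those most like Slc5a1 were Pus10 (0.878), Tnfsf15 (0.852) and Tbk1 (0.838). The treatment difference is part of this likeness, and 13869 genes were compared.

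The PiT transporters Slc20a1 and Slc20a2, which supply most cells with phosphate, did not pass the test in either schedule. Slc20a1 stood at 49.8, 32.2, 39.3 and 34.6 CPM in water and at 66.1, 37.4, 59.0 and 42.5 CPM in NMN replicates 1 to 4 at 1340 mg/kg/d, with overlap between the groups. The log2 fold change was 0.40 (SE 0.19, edgeR adjusted p = 0.564). The 2680 mg/kg/d libraries had 36.6, 30.4 and 27.0 CPM in water and 24.1, 25.6 and 25.2 CPM in NMN libraries. Here the groups did not overlap, with NMN lower, as in 8.69% of tested genes. The log2 fold change was -0.33 (SE 0.11, edgeR adjusted p = 0.29). The direct test of the difference between schedules gave -0.73 (SE 0.26, unadjusted p = 0.0149, edgeR adjusted p = 0.999). Slc20a2 ranged from 43.7 to 54.1 CPM over the 8 libraries at 1340 mg/kg/d and from 45.3 to 50.2 CPM over the 6 at 2680 mg/kg/d, with log2 fold changes of 0.05 (95% interval -0.14 to 0.23) and -0.05 (95% interval -0.20 to 0.10).

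Kl, which encodes the co-receptor for FGF23 and is most abundant in the distal tubule, overlapped between NMN and water in both schedules. It ranged from 722 to 980 CPM in water and from 680 to 939 CPM in NMN libraries at 1340 mg/kg/d. The ranges in the other schedule were 704 to 773 CPM and 599 to 744 CPM. The log2 fold changes were -0.10 (SE 0.11) and -0.14 (SE 0.10), with edgeR adjusted p of 0.853 and 0.64 and a lower bound of -0.34 in the second schedule.

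Cyp27b1, the enzyme that makes active vitamin D, and Cyp24a1, the enzyme that degrades it, had the widest spread of the 10 genes. In the 1340 mg/kg/d schedule Cyp27b1 stood at 13.1, 22.2, 17.2 and 8.73 CPM in water and at 13.9, 37.8, 47.8 and 11.2 CPM in NMN replicates 1 to 4. NMN replicates 2 and 3 were above all water libraries and replicates 1 and 4 were within their range. Cyp24a1 stood at 83.5, 44.6, 161 and 36.2 CPM in water and at 73.2, 24.5, 41.9 and 84.2 CPM in NMN libraries. Its highest value was in water replicate 3 and its lowest in NMN replicate 2. Their log2 fold changes were 0.85 (SE 0.57) and -0.54 (SE 0.62), with edgeR adjusted p of 0.725 and 0.856.

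Cyp27b1 at 2680 mg/kg/d was at 6.56, 11.4 and 7.33 CPM in water and at 10.01, 4.25 and 3.23 CPM in NMN libraries. Cyp24a1 was at 44.4, 58.3 and 90.1 CPM in water and at 153, 74.1 and 81.4 CPM in NMN libraries. Both genes overlapped between the groups, with log2 fold changes of -0.55 (SE 0.48, edgeR adjusted p = 0.739) and 0.68 (SE 0.43, edgeR adjusted p = 0.646). Without NMN replicate 1 the Cyp27b1 value was -1.19 (edgeR adjusted p = 0.0438) and the Cyp24a1 value 0.27 (edgeR adjusted p = 0.848). Over the 6 omissions Cyp27b1 ran from -1.19 to -0.24 and Cyp24a1 from 0.27 to 1.0. Within a library the count of Cyp24a1 per count of Cyp27b1 was 6.77, 5.09 and 12.3 in water and 15.3, 17.4 and 25.2 in NMN libraries, without overlap. The ratio at 1340 mg/kg/d ran from 2.01 to 9.38 in water and from 0.648 to 7.54 in NMN libraries, with NMN replicates 2 and 3 under 1. This ratio was not tested, since both of its genes were, and neither gene passed with all libraries of a schedule. The point estimates of both enzymes had opposite signs in the 2 schedules, but the differences between schedules were -1.40 (95% interval -3.02 to 0.22) for Cyp27b1 and 1.22 (95% interval -0.40 to 2.83) for Cyp24a1, with edgeR adjusted p of 0.999 for each.

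Vdr, the receptor for active vitamin D, was at 302, 288, 289 and 285 CPM in water and at 351, 285, 251 and 253 CPM in NMN replicates 1 to 4 at 1340 mg/kg/d. NMN replicate 1 was the highest of the 8 libraries and NMN replicates 3 and 4 were the lowest. In the 2680 mg/kg/d schedule it was at 267, 244 and 253 CPM in water and at 308, 297 and 297 CPM in NMN libraries. All 3 NMN libraries were above all water libraries, as in 8.47% of tested genes. The log2 fold changes were -0.03 (SE 0.11, edgeR adjusted p = 0.956) and 0.24 (SE 0.08, edgeR adjusted p = 0.256).

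**Figure D3:**
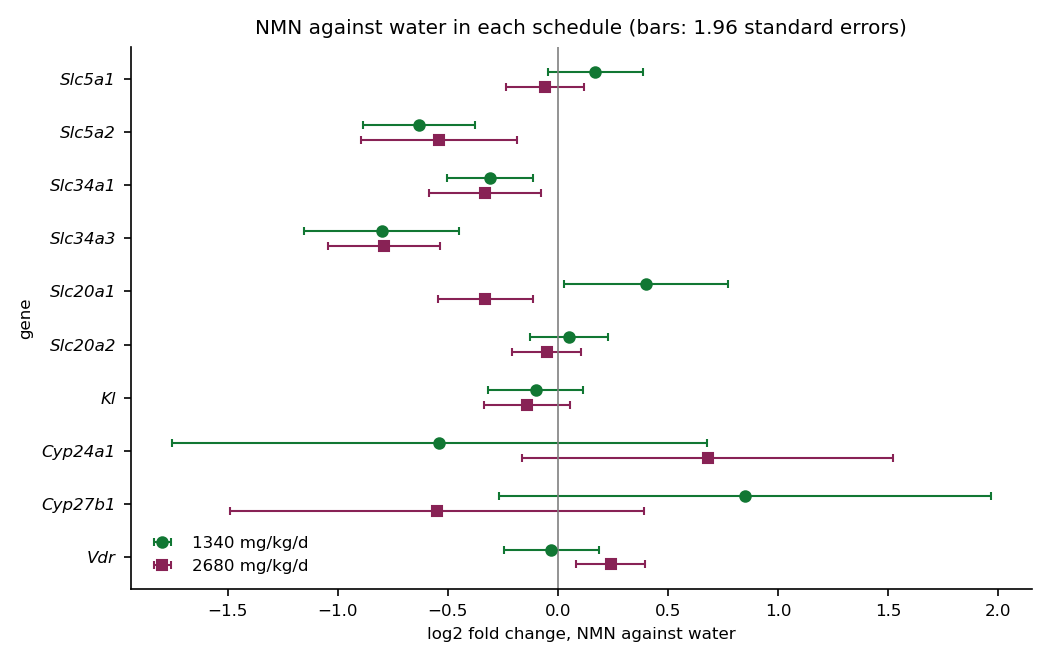
Log2 fold change of NMN against water (x axis) for each of the 10 genes (y axis) at 1340 (circles) and 2680 mg/kg/d (squares), with bars for the 95% interval. Slc5a2, Slc34a1 and Slc34a3 lie to the left of 0 in both schedules at similar values, and Cyp24a1 and Cyp27b1 have the widest bars.

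The interaction of treatment and schedule was tested for all genes over the 14 kidney libraries. None of the 10 passed, with edgeR adjusted p of at least 0.999, and 1 of 15989 tested genes did (0.00625%), Hao2. At an unadjusted p under 0.05, 1 of the 10 passed (Slc20a1) against 4.62% of genes. The difference between schedules was 0.09 (95% interval -0.37 to 0.55) for Slc5a2, -0.03 (95% interval -0.35 to 0.29) for Slc34a1 and 0.01 (95% interval -0.50 to 0.52) for Slc34a3, on the log2 scale.

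Partner genes of the 10 were grouped into 4 lists. Of 15 genes of glucose handling, 13 were tested, and 0 passed in either schedule. The sodium-glucose transporter gene Slc5a9 was between 29.9 and 33.4 CPM in water and between 20.9 and 25.7 CPM in NMN libraries at 2680 mg/kg/d, a log2 fold change of -0.48 (SE 0.10, edgeR adjusted p = 0.0736). It passed in DESeq2 (adjusted p = 0.0179) and in edgeR without NMN replicate 2 (adjusted p = 0.0475), and had -0.04 (SE 0.11) at 1340 mg/kg/d. In edgeR without a filter it also passed (adjusted p = 0.00361), but that setting called 514 genes at 2680 mg/kg/d in place of 61. Slc5a11, a myo-inositol transporter, had -0.23 (SE 0.08, edgeR adjusted p = 0.29) at 2680 mg/kg/d and -0.12 (SE 0.10, edgeR adjusted p = 0.775) at 1340 mg/kg/d. Pck1, the enzyme that commits the proximal tubule to making glucose, was higher on average in NMN kidneys of both schedules, with log2 fold changes of 0.67 (SE 0.14, edgeR adjusted p = 0.0852) and 0.90 (SE 0.40, edgeR adjusted p = 0.495). It overlapped between the groups in both schedules. It passed at 1340 mg/kg/d in DESeq2 (adjusted p = 0.00172), and in edgeR without water replicate 1 (adjusted p = 0.0132) or NMN replicate 3 (adjusted p = 0.0249). At 2680 mg/kg/d it passed in edgeR without NMN replicate 1, at 1.22 (adjusted p = 0.000303). Pdzk1ip1, a small partner of Slc5a2, was also named by rule, at -0.24 (SE 0.11, edgeR adjusted p = 0.56) at 1340 mg/kg/d. At 2680 mg/kg/d it had -0.11 (SE 0.11).

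Of 18 genes of phosphate handling, 15 and 16 were tested in the 2 schedules, and 0 passed in either. Slc9a3r1 (NHERF1), the scaffold that holds Slc34a1 in the brush border, had log2 fold changes of -0.23 (SE 0.10, edgeR adjusted p = 0.51) and -0.21 (SE 0.09, edgeR adjusted p = 0.436). Ezr ties that scaffold to actin. At 2680 mg/kg/d it was between 452 and 455 CPM in water and between 373 and 416 CPM in NMN libraries. It was thus lower in all NMN libraries, as in 8.69% of tested genes (log2 fold change -0.19, SE 0.08, edgeR adjusted p = 0.398). At 1340 mg/kg/d Ezr overlapped between the groups, with 0.07 (SE 0.11, edgeR adjusted p = 0.888). Slc34a2, the intestinal and lung member of the family, was at 3.20 CPM in water and 4.59 CPM in NMN kidneys on average at 1340 mg/kg/d, without overlap (log2 fold change 0.52, edgeR adjusted p = 0.558), and at 4.18 and 3.08 CPM at 2680 mg/kg/d, with overlap (log2 fold change -0.45, SE 0.22, edgeR adjusted p = 0.473). The FGF receptor Fgfr1 had -0.16 (SE 0.10) at 1340 mg/kg/d and 0.06 (SE 0.09) at 2680 mg/kg/d. Klb, a relative of klotho, was at 1.04 and 2.19 CPM on average at 2680 mg/kg/d (log2 fold change 1.09, SE 0.34, edgeR adjusted p = 0.232).

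Of 12 vitamin D partners, 11 and 12 were tested, and 0 passed in either schedule. Dab2, the adaptor of the endocytic receptors that take up vitamin D with its binding protein, was at 463 to 550 CPM in water and 355 to 507 CPM in NMN libraries at 1340 mg/kg/d and at 585 to 710 and 485 to 541 CPM at 2680 mg/kg/d. Over both schedules Dab2 fell by 0.34 on the log2 scale (SE 0.08, edgeR adjusted p = 0.0259), as 1 of the 12. Lrp2 (megalin), one of those receptors, had a log2 fold change of -0.29 (SE 0.09, edgeR adjusted p = 0.219) at 2680 mg/kg/d and of -0.06 (SE 0.13) at 1340 mg/kg/d. In DESeq2 both Dab2 (adjusted p = 0.0123) and Lrp2 (adjusted p = 0.0136) passed at 2680 mg/kg/d. Cyp27a1, which can hydroxylate vitamin D, had 0.30 (SE 0.09, edgeR adjusted p = 0.232) at 2680 mg/kg/d and 0.19 (SE 0.10) at 1340 mg/kg/d. The coactivator gene Med1 had 0.25 (SE 0.10) and the sterol reductase gene Dhcr7 -0.34 (SE 0.14) at 1340 mg/kg/d, with edgeR adjusted p of 0.454 and 0.47. At 2680 mg/kg/d Med1 had 0.02 (SE 0.10) and Dhcr7 -0.0 (SE 0.12).

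All 7 distal calcium-handling genes, which vitamin D and klotho are known to act on, were tested, and 0 passed in either schedule. Trpv5 is the calcium channel of the distal tubule. At 1340 mg/kg/d it was at 11.6 to 16.0 CPM in water and 18.3 to 20.3 CPM in NMN libraries (log2 fold change 0.55, SE 0.14, edgeR adjusted p = 0.132). DESeq2 put it past the threshold in that schedule (adjusted p = 0.0276). At 2680 mg/kg/d Trpv5 overlapped between the groups, with 0.17 (SE 0.11, edgeR adjusted p = 0.62). The exchanger Slc8a1 had 0.59 (SE 0.19, edgeR adjusted p = 0.338) and the calcium buffer Calb1 0.09 (SE 0.12) at 1340 mg/kg/d. At 2680 mg/kg/d Slc8a1 had 0.18 (SE 0.09) and Calb1 0.24 (SE 0.14). The calcium buffer S100g had at 2680 mg/kg/d -0.27 (SE 0.12), the channel Trpv6 0.63 (SE 0.32) and the calcium pump Atp2b1 -0.15 (SE 0.08), with edgeR adjusted p of 0.42, 0.489 and 0.499. At 1340 mg/kg/d S100g had -0.03 (SE 0.13), Trpv6 0.20 (SE 0.29) and Atp2b1 0.02 (SE 0.10).

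**Figure D4:**
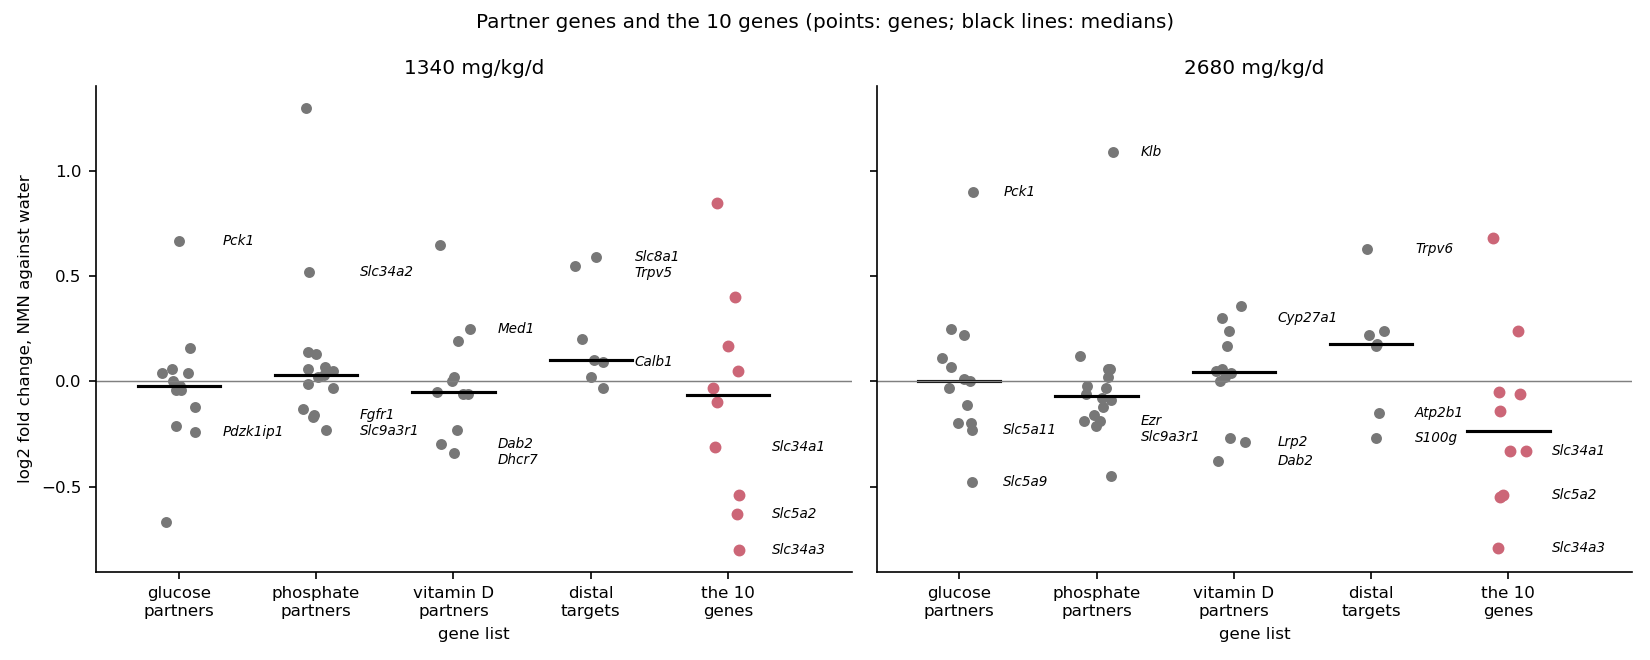
Log2 fold change of NMN against water (y axis) for the tested genes of 4 partner lists (grey) and the 10 genes (red) in each schedule, with the median of each list as a black line. The medians of the partner lists lie between -0.07 and 0.18, and Slc34a3 lies below all tested partner genes in both schedules.

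The kidney label was checked with markers of its segments. Summed levels of 9 general proximal tubule markers were 14106 to 15232 CPM in water and 12127 to 14627 CPM in NMN libraries at 1340 mg/kg/d, and 12916 to 14536 and 12085 to 13678 CPM at 2680 mg/kg/d, with overlap in both. Acsm2 or Slc27a2 was the most abundant of them, and 0 of the 9 passed the test. In each schedule 5 of the 9 had a point estimate above 0 and 4 below. Acsm2 was among the lower ones, at -0.3 (SE 0.11, edgeR adjusted p = 0.418) and -0.22 (SE 0.12, edgeR adjusted p = 0.5). The 6 early proximal markers overlapped between the groups in both schedules (2502 to 3153 and 2643 to 3594 CPM, then 2267 to 2593 and 2073 to 2732 CPM), as did the 7 late ones. Per 1000 counts of the 9 general markers, Slc34a3 had 3.80 to 4.42 counts in water and 1.49 to 3.84 in NMN libraries at 1340 mg/kg/d, and 3.39 to 3.63 and 1.98 to 2.48 at 2680 mg/kg/d. Slc5a2 had 24.9 to 31.0 and 13.6 to 26.2, then 14.045 to 18.4 and 9.66 to 13.998. Slc34a1 had 447 to 485 and 365 to 479, then 336 to 372 and 253 to 329.8. On this scale NMN and water libraries of all 3 transporters overlapped at 1340 mg/kg/d and did not overlap at 2680 mg/kg/d. The part of Acsm2 in these ratios was not tested.

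Sums were also taken for markers of later segments. At 1340 mg/kg/d the 6 thick ascending limb markers summed to 4239 to 5168 CPM in water and to 5526 to 6131 CPM in NMN libraries, led by Umod, and the 5 distal convoluted tubule markers to 1415 to 1509 and 1555 to 1758 CPM, led by Slc12a3. Neither sum overlapped, and 5 of 6 and 4 of 5 genes had a point estimate above 0, where 49.7% of all tested genes were below 0, but 0 passed the test. Both sums overlapped at 2680 mg/kg/d, with 2909 to 3692 against 3490 to 4094 CPM and at 1173 to 1410 against 1290 to 1474 CPM. Their part in the lower Slc5a2, Slc34a1 and Slc34a3 was not tested.

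All 5 podocyte markers had a higher mean log2 level with NMN in both schedules, with a median log2 fold change of 0.33 in each, and 0 passed. Their sum was led by Podxl and ran from 252 to 385 CPM in water and from 319 to 543 CPM in NMN libraries at 1340 mg/kg/d, and from 217 to 298 and from 284 to 325 CPM at 2680 mg/kg/d. The sums of the 5 intercalated cell markers did not overlap at 2680 mg/kg/d (271 to 274 and 288 to 341 CPM), with 4 of 5 point estimates above 0 and 0 past the test, and 1 of them, Aqp6, passed over both schedules with a rise of 0.28 on the log2 scale (SE 0.07, edgeR adjusted p = 0.0367). All 5 endothelium markers also had point estimates at or above 0 in both schedules, with medians of 0.22 and 0.05, and their sums overlapped. Markers of principal cells, endothelium, stroma, leukocytes, hepatocytes and proximal tubule injury had 0 calls in either schedule or over both. Of the 5 injury markers, 4 were tested in each schedule, with 2 and 3 point estimates above 0, and the median log2 fold change was -0.07 at 1340 mg/kg/d, 0.33 at 2680 mg/kg/d and 0.06 over both. Sox9 had -0.63 (SE 0.45) at 1340 mg/kg/d, and Lcn2 had -0.32 (SE 0.29) at 1340 mg/kg/d and 0.54 (SE 0.58) at 2680 mg/kg/d. In that list Havcr1 (KIM-1), a membrane protein of damaged proximal tubule cells, had log2 fold changes of 1.5 (SE 0.57, edgeR adjusted p = 0.455) and 1.80 (SE 1.13, edgeR adjusted p = 0.646), and of 1.65 over both schedules (SE 0.63, unadjusted p = 0.0235, edgeR adjusted p = 0.286). It stood at 1.07, 1.20, 1.63 and 1.16 CPM in water and at 9.20, 1.33, 1.498 and 2.32 CPM in NMN replicates 1 to 4 at 1340 mg/kg/d, and at 4.88, 1.45 and 0.721 CPM in water and 3.24, 3.24 and 18.1 CPM in NMN replicates 1 to 3 at 2680 mg/kg/d. The groups overlapped in both schedules, and 1 NMN library of each stood far above the rest. Its part in the lower transporters was not tested. Adipocyte markers, led by Cfd, summed to 14.99 to 64.4 CPM in water and 4.38 to 69.8 CPM in NMN kidneys at 1340 mg/kg/d, and to 184 to 233 and 175 to 325 CPM at 2680 mg/kg/d, with overlap within each schedule (the schedules were scaled separately). Of the 5 adrenal cortex markers, Cyp11b1 and Cyp11b2 were at 0 in every kidney library and Star was the most abundant at 4.93 CPM or less on average.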

How the data were processed

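PolyA RNA of whole liver and kidney was sequenced. STAR alignment and gene counting in HTSeq 0.11.0 without regard to strand were done by the authors (submitters' processing notes and methods), and the deposited files hold raw counts. Symbols came from GENCODE M21, where 53229 of 54446 identifiers matched in full, 1180 except for the version and 37 failed to match. The members and gene lists were chosen with earlier results of these data known.

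The libraries were grouped by their titles. The main test was edgeR 4.0.16 in R 4.3.3 (filterByExpr, TMM scaling, robust quasi-likelihood test, Benjamini-Hochberg adjustment over all tested genes of a comparison, adjusted p under 0.05), within a schedule for NMN against water and over 14 kidney libraries for the interaction. CPM are TMM-scaled within a schedule, so they are not comparable across schedules. TPM were computed from the counts and exonic lengths. Intervals are 95% normal intervals from the standard error. Permutation tests used log2(CPM + 1). Partner and marker lists were written by hand. The genes named were the 10 members, the 3 genes of smallest p per partner list and schedule, and the 3 genes of highest correlation with each of 4 transporters. Some items of the lists and of the promoter search are not reported here. Alternatives were DESeq2 1.42.0, other scalings and filters, no robust option, a replicate block, thinning, no mitochondrial genes, all 14 libraries in 1 fit, and each library left out. The fit over both schedules was chosen after seeing the data. The edgeR and DESeq2 steps were tested on simulated counts. Reads carry no molecular identifiers, so depth limits the counting error only. Other deposited libraries (liver) were used for levels only.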

Additional observations from a re-analysis of the deposited data

Results flagged for a closer look

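Slc5a1 in the water kidneys of the 1340 mg/kg/d schedule had 1 library apart from the others. Replicate 2 stood at 86.1 CPM and the other 3 between 62.6 and 64.6 CPM, so that its gap to the next library was 0.92 of the range of the group. This is past the 95% critical value of Dixon's ratio for 4 libraries. The 10 genes gave 20 such groups of 4, and chance gives about 1 in 20. Without this library the log2 fold change of Slc5a1 is 0.3 (edgeR adjusted p = 0.359). The cause was not tested.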

How the results depend on the processing

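Of 640 values of single genes under the settings other than leaving out a library, 598 kept direction and side of the threshold, 29 newly passed it, 4 no longer passed it and 9 changed sign. Of 588 values with 1 library left out, 530 kept both, 8 newly passed, 15 no longer passed and 35 changed sign.

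Genes called at 1340 mg/kg/d numbered 18 and were 157 in DESeq2, 269 without a filter, 5 without the robust option and 5 to 67 with 1 library left out. Members called went from 0 to 2 (Slc5a2 and Slc34a3) in DESeq2 and without a filter, and ranged from 0 to 2 with a library left out. At 2680 mg/kg/d 61 genes became 236 in DESeq2, 514 without a filter, 35 in 1 fit of all 14 libraries and 3 to 191 with a library left out, and 1 member became 2, 2, 0 and 0 to 2. In the interaction 1 gene became 11 in DESeq2, 106 without a filter and 0 with upper quartile scaling, at least 10 counts in every library, no robust option or thinning, and 0 to 1 with a library left out. Members called there stayed at 0 except for 3 without a filter (Slc20a1, Cyp24a1 and Cyp27b1). Over both schedules 204 genes became 509 in DESeq2, 771 without a filter and 100 to 290 with a library left out, and 3 members became 2 to 3. Slc5a2 and Slc34a3 were called in every setting of that fit, and Slc34a1 was not with DESeq2 size factors (adjusted p = 0.0514), no robust option (0.0573) or no mitochondrial genes (0.0517). The causes were not tested.

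The replicate numbers of the labels are shared by the groups, and the labels do not say whether same-numbered libraries are paired. Same-numbered libraries did not all deviate together, which cannot show that they were unpaired. Correlations of their deviations were 0.142, 0.207, -0.131 and -0.016 at 1340 mg/kg/d and 0.042, -0.029 and 0.004 at 2680 mg/kg/d. With the replicate block 75 genes were called at 1340 mg/kg/d and 92 at 2680 mg/kg/d, 2 in the interaction and 260 over both schedules. At 1340 mg/kg/d the block called 2 members, Slc5a2 (-0.64, adjusted p = 0.00427) and Slc34a3 (-0.84, adjusted p = 0.0139), and at 2680 mg/kg/d Slc34a3 (adjusted p = 0.0126).

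Some signs turned. Over both schedules Slc20a2 was -0.0088 with upper quartile scaling and -0.00069 after thinning, and Cyp24a1 0.042 with the replicate block. Set in place of the fit of 1 schedule, the single effect over both schedules gave 0.082 for Vdr against the 1340 mg/kg/d sign, and 0.07 for Slc5a1, 0.085 for Slc20a1, 0.0012 for Slc20a2, -0.014 for Cyp24a1 and 0.29 for Cyp27b1 against the 2680 mg/kg/d sign. With 1 library left out, values at 1340 mg/kg/d ran from -0.022 to 0.21 for Calb1, -0.81 to 0.042 for Cyp24a1, -0.002 to 0.11 for Slc20a2 and -0.15 to 0.024 for Vdr. Over both schedules they ran from -0.22 to 0.34 for Cyp24a1, -0.023 to 0.17 for Slc20a1 and -0.027 to 0.034 for Slc20a2. In the interaction they ran from -0.15 to 0.049 for Kl, -0.15 to 0.11 for Slc34a1, -0.16 to 0.18 for Slc34a3 and -0.085 to 0.26 for Slc5a2.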
